A study of Homo sapiens with 12 samples.

Results

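MDA-MB-231 cells grown in RPMI-1640 with 10% fetal bovine serum (FBS) were compared with cells of the same label grown in minimum essential medium (MEM) with 10% horse serum (HS). The members are 4 of the 12 arrays of the series, 2 of the RPMI-1640 condition and 2 of the HS condition, chosen by their labels, and all 47231 probes of each array were used. Both conditions were harvested at 90% confluence, and medium and kind of serum changed together, so their parts in a difference cannot be told apart. MDA-MB-231 is a line from a human breast carcinoma, and the labels call every sample parental cells. The other conditions were DMEM with 10% FBS, MEM with 10% FBS and MEM with 0.1% FBS, each at 90% confluence, and MEM with 10% FBS at 50% confluence. All media had received glutamine, pyruvate, non-essential amino acids, extra vitamins and antibiotics. The labels do not say whether the 2 arrays of a condition came from separate cultures, so the p-values measure the spread between these arrays, which may be technical.

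RPMI-1640 holds more glucose than MEM, and it holds amino acids and glutathione that basal MEM lacks, while horse and fetal bovine serum differ in growth factors, hormones and lipids. Cells read their nutrient supply through several transcription factors. When amino acids run short or unfolded protein gathers in the endoplasmic reticulum (ER), kinases slow translation and the factor ATF4 is made, which turns on genes for amino acid synthesis and uptake, for charging of tRNA and, under lasting stress, the factor DDIT3 (CHOP). Unfolded protein also activates ATF6 and XBP1, which turn on ER chaperones through the ER stress element of their promoters. Heat shock proteins answer to unfolded protein in the cytosol, and E2F factors turn on genes of DNA replication when growth factors drive cells into S phase.

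Promoters of ATF4 and ER chaperone genes are shown because these gene lists had the lowest median log2 differences of RPMI-1640 from HS, -1.41 and -0.82. The genes printed are members that hold the element, whatever the size of their own difference. Sequences are RefSeq promoters of GRCh38.p14, 1 start site per gene (the first listed), and the 250 bases before the start were searched on both strands. The C/EBP-ATF element was written as TGATGNAAN and the ER stress element as CCAAT, 9 bases of any kind and CCACG, where N is any base. Capitals mark the matches, which are a description of letters and no proof of binding. The first 3 sequences hold a C/EBP-ATF element and the other 5 an ER stress element.
ASNS, chr7:97872429-97872528, minus strand: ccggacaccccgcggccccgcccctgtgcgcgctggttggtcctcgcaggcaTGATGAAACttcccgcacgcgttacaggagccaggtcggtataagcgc
ATF3, chr1:212565167-212565266, plus strand: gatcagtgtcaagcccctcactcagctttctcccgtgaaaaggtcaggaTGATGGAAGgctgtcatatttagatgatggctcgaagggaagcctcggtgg
CHAC1, chr15:40953221-40953320, plus strand: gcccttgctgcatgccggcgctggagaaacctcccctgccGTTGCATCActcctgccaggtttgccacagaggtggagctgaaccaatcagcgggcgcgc
CRELD2, chr22:49918504-49918603, plus strand: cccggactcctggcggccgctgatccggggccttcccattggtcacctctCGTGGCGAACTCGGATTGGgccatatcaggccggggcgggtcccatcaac
XBP1, chr22:28800590-28800689, minus strand: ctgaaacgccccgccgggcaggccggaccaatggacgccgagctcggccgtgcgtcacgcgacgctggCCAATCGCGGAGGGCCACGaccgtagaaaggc
HSP90B1, chr12:103930190-103930349, plus strand: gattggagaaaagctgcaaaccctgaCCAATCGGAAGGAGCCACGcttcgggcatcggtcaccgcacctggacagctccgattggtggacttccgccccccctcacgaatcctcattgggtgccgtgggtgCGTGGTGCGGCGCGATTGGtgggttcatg
CALR, chr19:12938359-12938458, plus strand: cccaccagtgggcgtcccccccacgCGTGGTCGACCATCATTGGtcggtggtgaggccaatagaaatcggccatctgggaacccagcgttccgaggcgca
HSPA5, chr9:125241364-125241463, minus strand: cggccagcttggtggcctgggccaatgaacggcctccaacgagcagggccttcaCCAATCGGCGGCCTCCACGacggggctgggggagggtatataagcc

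Of the 30 genes of the ATF4 list, 25 had a promoter entry and 4 of these (16%) held the C/EBP-ATF element, against 3.18% of all 27305 promoters. The element began 68 bases before the start in ASNS, 191 in ATF3 and 210 in CHAC1, and the fourth promoter was that of FGF21. Of the 19 ER chaperone and unfolded protein response genes, 7 (36.8%) held the ER stress element, against 0.0806% of all promoters. CANX and ERO1B (ERO1LB on the array) were the other 2, and HSP90B1 held 2 copies on opposite strands. HERPUD1, DNAJB9 and SDF2L1, the ER genes with the largest differences, were not among the 7. DDIT3 and TRIB3 of the ATF4 list were not among the 4. Both shares describe the listed genes, called or not, and say nothing of their levels on these arrays.

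Levels below are the log2 values that the authors deposited, from Illumina HumanHT-12 arrays brought to 1 distribution by quantile normalization. As background, each array's 95th percentile over 463 probes of olfactory receptors was taken, which lay at 6.90 and 6.96 on the RPMI-1640 arrays and at 6.98 and 6.99 on the HS arrays. Above it were 20065 and 17565 probes on the RPMI-1640 arrays and 17127 and 16744 on the HS arrays. Differences were fitted with limma to all 12 arrays with 1 mean per condition, and a probe was called at a Benjamini-Hochberg adjusted p under 0.05. For gene lists, each symbol is given by its brightest probe. Each mean rests on 2 arrays, which bounds its precision.

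Cells in RPMI-1640 had lower levels of stress and amino acid synthesis genes and higher levels of cell cycle and heat shock genes than cells in HS. Of all probes, 3996 (8.46%) were called, 2278 higher (4.82%) and 1718 lower (3.64%) in RPMI-1640. Their median size was 0.56, and 394 reached 2-fold, 214 higher (0.453%) and 180 lower (0.381%), which stand for 186 and 155 gene symbols. Without RPMI-1640 replicate 1, 2323 probes were called, and without any other of the 4 arrays 2781 to 3049. At the level of symbols, 4.93% were called higher and 4.32% lower, and the median difference of all 31334 symbols was -0.01. The largest differences were -4.15 for DDIT3 and 2.75 for TXNIP. The plot of RPMI-1640 against HS shows that most symbols lie along the line of equal levels and that the stress genes lie farthest from it.

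**Figure D1:**
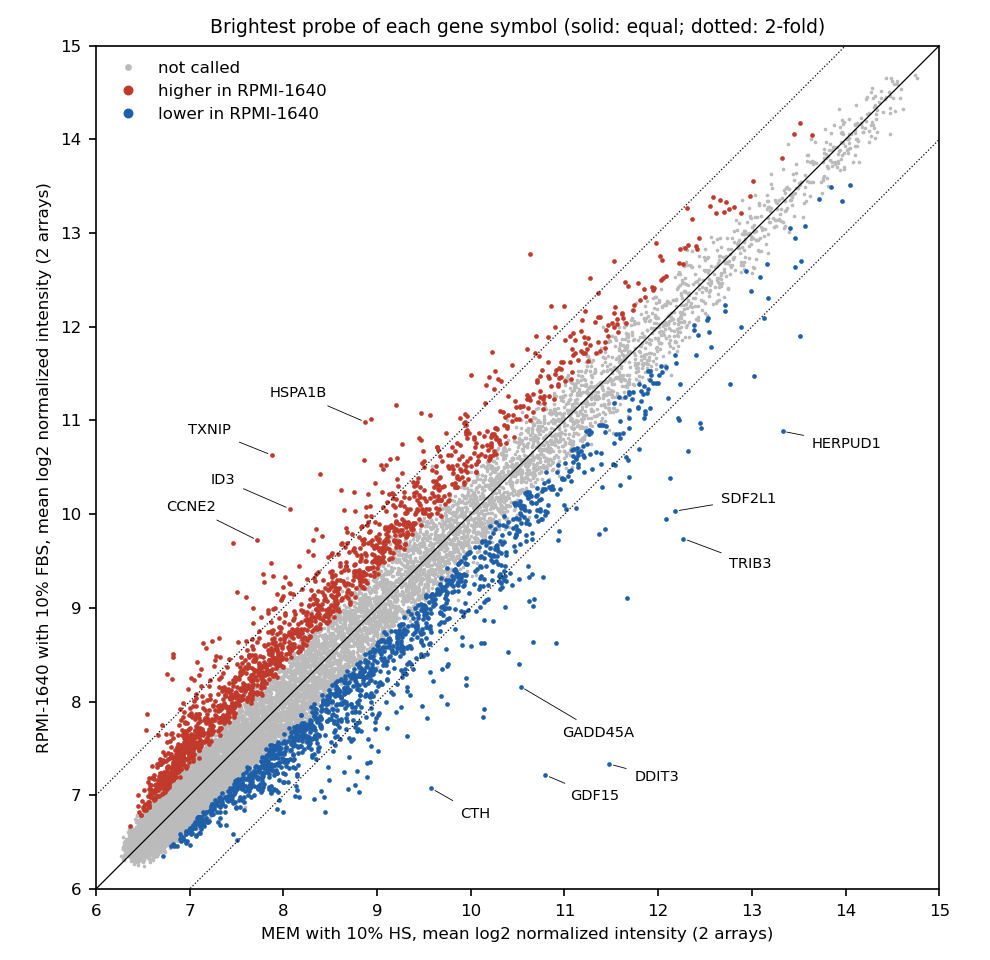
Mean log2 normalized intensity of the brightest probe of 31334 gene symbols, MEM with 10% HS on the x axis and RPMI-1640 with 10% FBS on the y axis, 2 arrays each; red and blue points were called higher and lower in RPMI-1640. DDIT3 and GDF15 lie farthest below the line of equal levels, with differences of -4.15 and -3.58, and TXNIP farthest above it, with 2.75.

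The 2 arrays of a condition correlated across probes at 0.991 for RPMI-1640 and at 0.989 for HS, and an RPMI-1640 with an HS array at 0.974 to 0.977. An RPMI-1640 array correlated with one of MEM at 50% confluence at 0.986 to 0.991. Between RPMI-1640 and MEM at 50% confluence 104 probes were called, and between HS and MEM at 50% confluence 4477. Against MEM at 50% confluence, the ATF4 list had a median of 0.04 in RPMI-1640 and 1.28 in HS. The list of mitotic genes had 0.15 and -0.59. The pair from MEM, 10% FBS, 90% confluence stood apart from all others and entered the estimate of the spread. Without them 3400 probes were called, against 3996 with them. The 0.1% FBS arrays, whose correlation of 0.987 was the lowest within a condition, also entered it, and without those 4616 probes were called. A further split of the arrays runs through this comparison. The probe of 18S ribosomal RNA (LOC100008588, RNA18SN5 in RefSeq) was at 12.90 and 12.64 in RPMI-1640 and at 10.70 and 10.57 in HS. A probe of 28S ribosomal RNA (LOC100008589, RNA28SN5) was at 8.79 and 9.42 in RPMI-1640 and at 11.70 and 11.63 in HS, while a second 28S probe differed by only -0.06 (adjusted p = 0.92). The arrays of RPMI-1640, 0.1% FBS and 50% confluence had the 18S probe at 12.31 to 13.28 and the 28S probe at 8.79 to 9.96. Those of HS, DMEM and MEM with 10% FBS at 90% confluence had them at 10.45 to 11.34 and at 11.63 to 12.40. The labels name no slide, scan or preparation date, and the part of this split in the results was not tested. The difference of DMEM from HS, which lie on the same side of the split, is therefore given beside the results. It uses the same 2 HS arrays and is no independent repeat, and it also changes medium and serum together. Of all symbols, 3.24% were called higher and 2.70% lower in DMEM than in HS.

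The labelled line was checked against marker genes. Of 26 markers of MDA-MB-231 cells, 19 were above background on all 4 arrays, among them VIM, CD44, AXL and CAV1. KRT8, a keratin of simple epithelia, was not above background, at 6.88 and 6.81 in RPMI-1640 and 6.95 and 6.83 in HS, nor was KRT19, and PLAU, which makes urokinase, was barely above it, at no more than 7.01 on any of the 4 arrays. In MEM, 10% FBS, 90% confluence, KRT8 was at 10.29 and 9.80 and PLAU at 10.63 and 10.49. Of 25 genes of the melanocyte lineage 17 were above background on all 4 arrays, whereas TYRP1 and S100B were above it on none and MLANA on 1. No fibroblast marker of 10 and 1 blood cell marker of 10 was above background on all 4. Of 27 epithelial markers, 3 were above background on all 4 arrays. Part of the markers of the labelled line and part of those of the melanocyte lineage were thus found, with KRT8, KRT19 and PLAU at or near background. These counts do not settle the identity of the cells, which was not tested. The cells are called here by their label only. KRT8, KRT19, PLAU, MLANA, TYRP1 and S100B were picked for mention after their values were seen.

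Of the 49 gene lists examined, that of the ATF4 pathway held the most genes that were lower in RPMI-1640. Of 30 amino acid response and ATF4 genes, 22 were called lower and 1 higher, with a median of -1.41, against 4.32% of all symbols lower and a median of -0.01. DDIT3, the pro-apoptotic factor CHOP, was at 7.30 and 7.37 in RPMI-1640 and at 11.27 and 11.69 in HS. That is 17.7-fold lower in RPMI-1640 (log2 difference -4.15 ± 0.19 SE, limma adjusted p = 1.9e-08). ATF4 itself was at 11.78 and 12.02 against 13.57 and 13.46 (-1.61). ATF3, a partner factor that represses and activates stress genes, was at 8.47 and 8.32 against 10.52 and 10.51 (-2.12, adjusted p = 6.2e-08). TRIB3, a pseudokinase that binds ATF4 and dampens its activity, was at 9.66 and 9.82 against 12.32 and 12.22 (-2.53). CEBPB and CEBPG, which pair with ATF4 on DNA, differed by -1.38 and -1.16, CEBPB at 11.33 and 11.44 against 12.87 and 12.67. The RPMI-1640 and HS arrays did not overlap for any of these regulators. That held for all 3996 called probes and was not counted over the uncalled ones, so it adds nothing to the calls.

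Enzymes that make amino acids followed. ASNS, which makes asparagine and whose promoter is printed above, was at 9.85 and 10.05 in RPMI-1640 and at 12.20 and 11.97 in HS. It was 4.39-fold lower in RPMI-1640 (-2.14 ± 0.28 SE, adjusted p = 0.00021), and its second probe differed by -1.59. CTH and CBS carry homocysteine to cysteine. CTH was at 7.07 on both RPMI-1640 arrays and at 9.41 and 9.75 on the HS arrays (-2.51), with 2 more probes at -1.72 and -1.39, and CBS was at 8.31 and 8.97 against 10.97 and 10.35 (-2.03). The serine and folate enzymes PSPH, PSAT1, PHGDH and MTHFD2 differed by -1.70, -0.99, -0.86 and -1.74, and SHMT2 by -0.64, which did not pass the test (adjusted p = 0.056). Among transporters, SLC3A2 (-1.59), SLC7A1 (-1.44) and SLC38A2 (-0.62) were called lower, whereas SLC7A5 (-0.64), SLC1A5 (-0.55) and SLC7A11 (-0.13) were not called. CHAC1, which breaks down glutathione, was not above background in RPMI-1640 and was at 7.48 and 7.54 in HS, at least 1.5-fold higher there. VLDLR, a lipoprotein receptor, was the 1 member called higher (0.35), and that call was lost without RPMI-1640 replicate 1, HS replicate 1 or HS replicate 2. Without any 1 of the 4 arrays, 20 to 23 members were called lower.

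**Figure D2:**
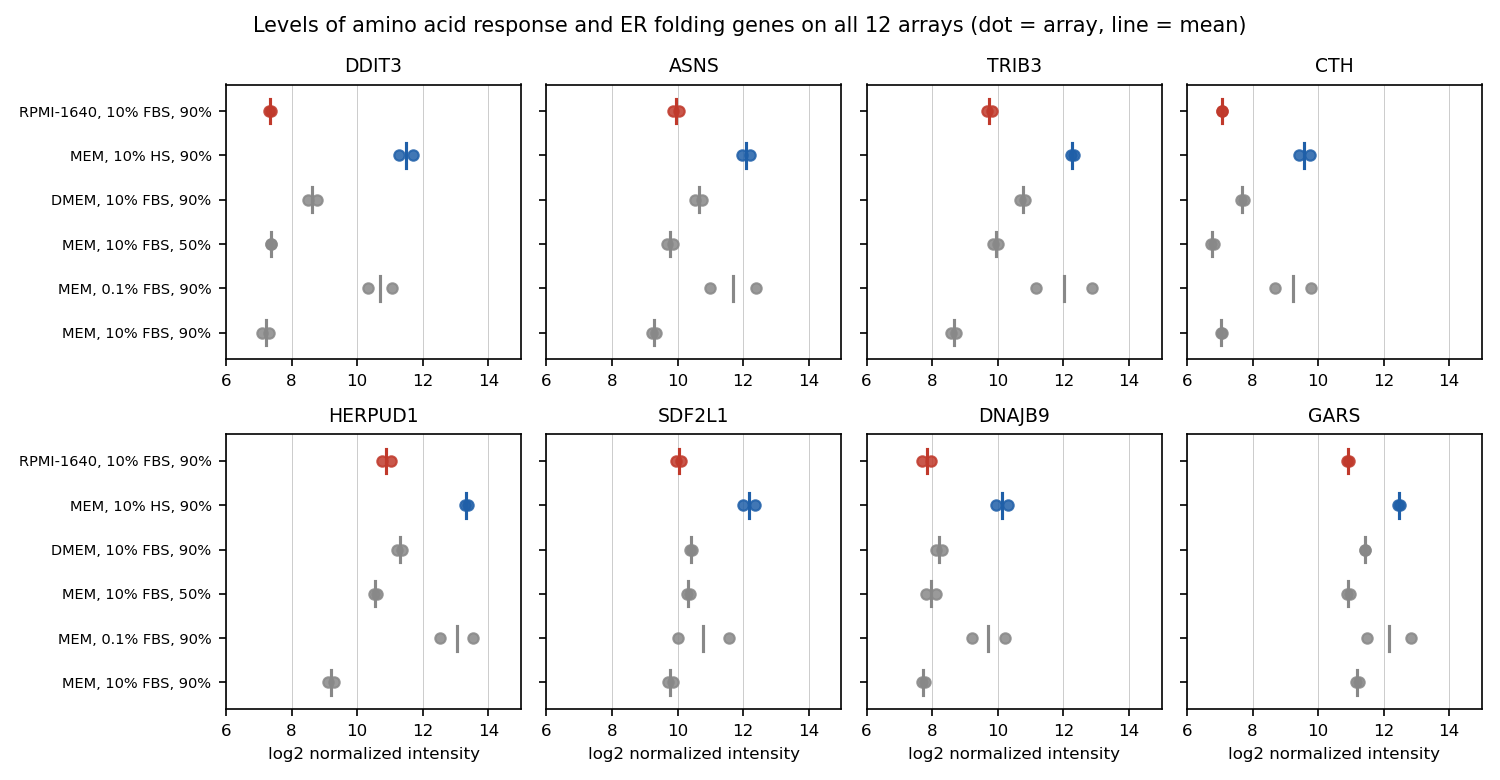
Log2 normalized intensity of 8 genes on all 12 arrays, 1 row per condition, with a dot for each array and a line at the mean. In all 8 panels, as for every probe called lower, both HS arrays (blue) lie above both RPMI-1640 arrays (red). The arrays of 0.1% FBS lie nearer to HS than to RPMI-1640 for DDIT3, CTH, HERPUD1 and DNAJB9.

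For DDIT3 and CTH the HS arrays lay above every array with 10% FBS. DDIT3 was at 8.48 and 8.76 in DMEM, at 7.37 and 7.36 in MEM at 50% confluence and at 7.10 and 7.32 in MEM at 90% confluence. In 0.1% FBS it was at 11.05 and 10.32, below both HS arrays. CTH was at 7.65 and 7.73 in DMEM and at 9.78 and 8.68 in 0.1% FBS, on either side of HS. In DMEM minus HS, 23 of the 30 list members were called lower and 0 higher, with a median of -1.08, and DDIT3 differed by -2.86, ASNS by -1.43 and TRIB3 by -1.51. RPMI-1640 was lower than DMEM in 5 members, with a median of -0.36, among them DDIT3 (-1.29, adjusted p = 0.00071). For ASNS and TRIB3, RPMI-1640 and DMEM did not differ at the threshold (-0.70 and -1.02, adjusted p = 0.20 and 0.098).

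Aminoacyl-tRNA synthetases, which charge tRNA with amino acids, were lower or not called. Of 20 enzymes, 8 were called lower and 0 higher, with a median of -0.23. GARS, the glycine enzyme, was at 10.96 and 10.88 in RPMI-1640 and at 12.49 and 12.43 in HS (-1.54 ± 0.26 SE, adjusted p = 0.0015). WARS (tryptophan), AARS (alanine) and SARS (serine) differed by -1.29, -1.29 and -1.20, while QARS (0.13), RARS (0.24) and VARS (0.07) were not called. The list's count depended on single arrays, with 3 called without RPMI-1640 replicate 2 or without HS replicate 1, 4 without RPMI-1640 replicate 1 and 6 without HS replicate 2. SARS was lost without RPMI-1640 replicate 2 and without HS replicate 1, whereas GARS, WARS and AARS were called in each. In DMEM minus HS, 6 of the 20 were called lower, with a median of -0.39.

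ER folding genes were lower or not called. Of 19 chaperone and unfolded protein response genes, all had negative differences, 11 were called lower and 0 higher, and the median was -0.82. HERPUD1, which helps to clear proteins from the ER membrane, was at 11.02 and 10.75 in RPMI-1640 and at 13.37 and 13.29 in HS, 5.44-fold lower (-2.44 ± 0.21 SE, adjusted p = 9.3e-06). Its second probe differed by -2.59. SDF2L1, an ER luminal protein, was at 9.96 and 10.11 against 12.37 and 11.99 (-2.15), and the co-chaperone DNAJB9 was at 7.97 and 7.70 against 9.94 and 10.31 (-2.29). For all 3 genes both HS arrays were above both RPMI-1640 arrays. The same held for every probe called lower, so it is no separate observation. HYOU1, a large ER chaperone, differed by -1.77 and DNAJB11 by -1.47. XBP1 was at 10.52 and 10.27 against 11.78 and 11.60 (-1.29). CRELD2 (-1.12), HSP90B1 (-0.89) and CALR (-0.71), whose ER stress elements are printed above, were called lower. HSPA5, the chaperone BiP, was at 7.85 and 8.32 against an HS mean of 8.97 and was not called (-0.88, adjusted p = 0.10), nor were P4HB (-0.07) and PDIA6 (-0.32). In DMEM minus HS, 10 were called lower and the median was -0.87, and no member was called between RPMI-1640 and DMEM.

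GDF15, GADD45A and NUPR1 were among the 12 symbols with the largest decrease. GDF15, a secreted stress cytokine, was at 7.26 and 7.17 in RPMI-1640 and at 10.84 and 10.76 in HS, 12-fold lower (-3.58 ± 0.34 SE, adjusted p = 1.9e-05). Its levels in 0.1% FBS were 11.51 and 9.72. GADD45A, a growth arrest and DNA damage gene, was at 8.29 and 8.02 against 10.63 and 10.44 (-2.38), and its second probe differed by -2.24. In 0.1% FBS it was at 9.58 and 8.81, below both HS arrays. NUPR1, a small stress protein of chromatin, was at 8.60 and 8.65 against 10.93 and 10.89 (-2.29), and a probe under its older name P8 gave -2.21. DDIT4, an inhibitor of mTOR signaling, differed by -1.65 and SESN2, another such inhibitor, by -1.62, at 6.93 and 6.72 against 8.52 and 8.37. Of 21 p53 targets, 6 were called lower and 1 higher with a median of 0.04, the 6 being GDF15, GADD45A, SESN2, CDKN1A, PMAIP1 and BAX, and the 1 being RRM2B (0.57), not called without HS replicate 2. MDM2 (0.19), SESN1 (0.31) and XPC (0.36), classical p53 targets, were not called. DMEM minus HS was called for GDF15 (-1.71), GADD45A (-1.89), SESN2 (-1.28) and PMAIP1 (-1.27) and not for CDKN1A (0.06) or BAX (0.27).

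Immediate early genes, which respond within minutes to growth factors and stress, were lower or not called, with 4 of 20 lower, 0 higher and a median of -0.16. MYC was at 8.64 and 8.62 in RPMI-1640 and at 10.11 on both HS arrays (-1.48 ± 0.09 SE, adjusted p = 3.1e-07), and its second probe differed by -0.97. It was at 9.05 and 9.02 in DMEM and at 10.14 and 10.00 in 0.1% FBS. In MEM with 10% FBS, MYC was at 10.01 and 9.98 at 90% confluence and at 9.02 and 8.93 at 50% confluence. EGR1, at 6.97 and 7.11 against 7.64 and 8.11, differed by -0.83. KLF4 differed by -0.72, but its call was lost without RPMI-1640 replicate 1 (adjusted p = 0.051) and without HS replicate 2 (adjusted p = 0.081).

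Heat shock genes of the cytosol went the other way. Of 15 genes, 8 were called higher and 0 lower, with a median of 0.41, against 4.93% of all symbols. HSPA1B, an inducible HSP70, was at 11.07 and 10.89 in RPMI-1640 and at 9.16 and 8.58 in HS, 4.31-fold higher (2.11 ± 0.28 SE, adjusted p = 0.00024). HSPA1A, its near-identical neighbor whose probe can also bind HSPA1B, was at 8.32 and 8.62 and not above background in HS, at least 2.81-fold higher. The co-chaperones DNAJB1, DNAJA1 and BAG3 were higher by 1.44, 0.84 and 0.86, DNAJB1 at 10.71 and 10.35 against 9.06 and 9.12. HSPH1 (0.77), HSPA8 (0.61) and HSP90AB1 (0.41) were also called. HSPB1, HSPE1 and HSPD1 were not (0.08, 0.18 and 0.25), the latter pair being chaperones of mitochondria. HSPA1B was at 10.83 to 11.28 in the 2 MEM conditions with 10% FBS and at 10.96 and 10.95 in DMEM, and the 2 HS arrays were below all of these. In 0.1% FBS it was at 8.94 and 10.25. In DMEM minus HS, 5 of the 15 were called higher and the median was 0.38, with HSPA1B at 2.08.

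TXNIP had the largest increase in RPMI-1640. The protein binds thioredoxin and limits glucose uptake, and its gene is known to follow glucose through the factors MondoA and ChREBP. It was at 10.45 and 10.81 in RPMI-1640 and at 7.92 and 7.83 in HS, 6.74-fold higher (2.75 ± 0.12 SE, adjusted p = 1.3e-08). It was at 9.87 and 9.81 in DMEM (1.97 above HS), at 10.36 and 10.37 in MEM at 50% confluence and at 12.53 and 12.31 in MEM at 90% confluence. Only 0.1% FBS, at 8.35 and 8.38, came near HS. Of the 11 genes of the glucose-responsive list, 3 were called higher and 1 lower (0 lower without RPMI-1640 replicate 1 or HS replicate 1), with a median of 0.11, and the relatives ARRDC2 and ARRDC3 were not called (0.11 and 0.19). KLF10 was at 8.22 and 8.36 against 7.04 and 7.17 (1.18), while DMEM minus HS was -0.32. ARRDC4 was higher by 0.44, a call lost without either RPMI-1640 array or without HS replicate 1, where adjusted p was 0.080 to 0.23. Of 21 glycolysis genes, 2 were called higher and 2 lower, and without HS replicate 1 these were 4 and 1, without HS replicate 2 1 and 3, without RPMI-1640 replicate 1 1 and 1, and without RPMI-1640 replicate 2 3 and 2. PGAM1, a glycolytic mutase, was at 12.70 and 12.34 against 11.43 and 11.11 (1.25), and HK2, a hexokinase, was at 8.91 and 8.79 against 9.67 and 9.70 (-0.84), while a second HK2 probe differed by -0.02.

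**Figure D3:**
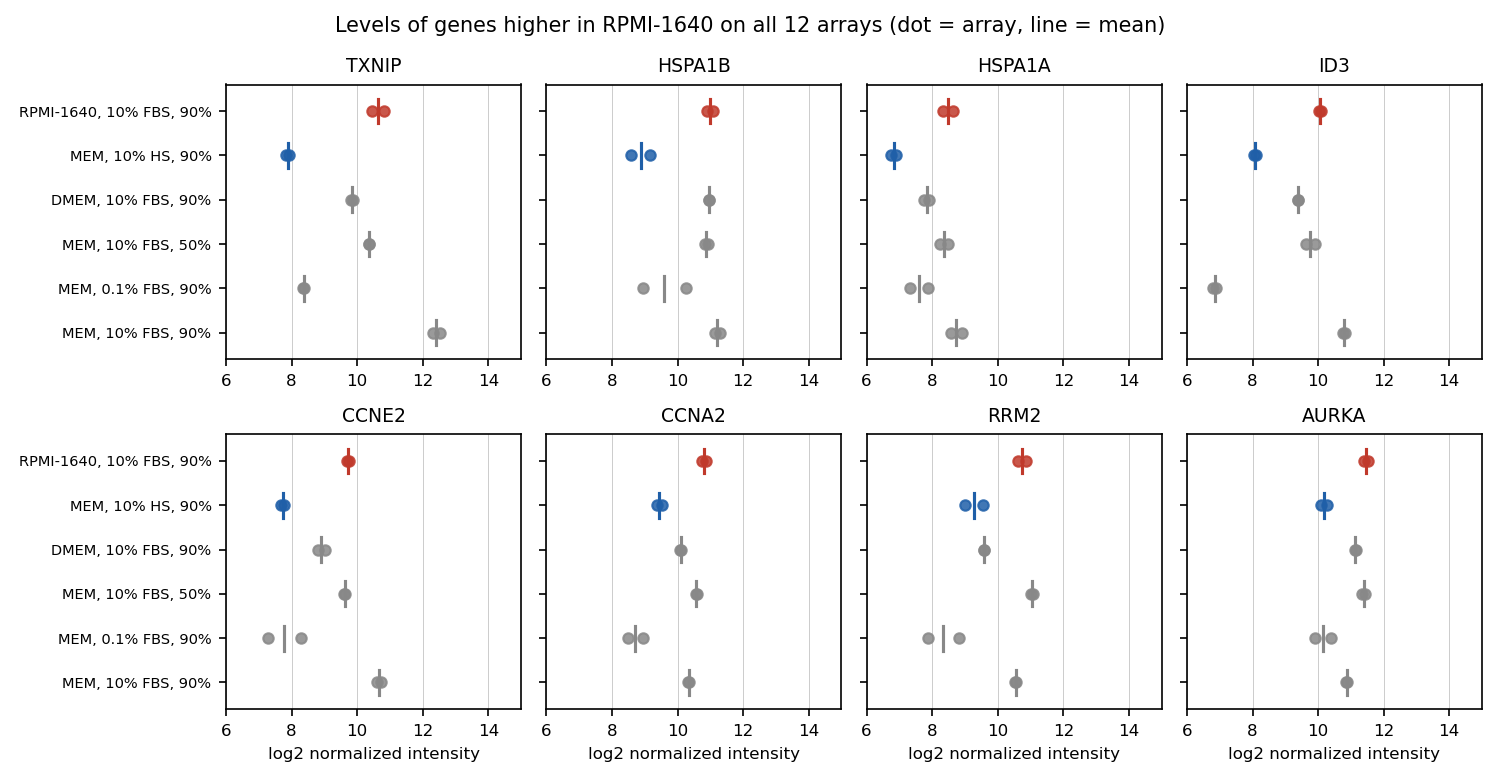
Log2 normalized intensity of 8 genes called higher in RPMI-1640 than in HS on all 12 arrays, with a dot for each array and a line at the mean. In every panel, as for every probe called higher, both RPMI-1640 arrays (red) lie above both HS arrays (blue). TXNIP, at 10.45 and 10.81 against 7.92 and 7.83, is the most widely separated.

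Cell cycle genes were higher in RPMI-1640. Of 30 genes of G1/S and DNA replication, 10 were called higher and 0 lower, with a median of 0.43, against 4.93% of all symbols higher. Of 15 housekeeping genes, all above background on all 4 arrays, 5 were called higher and 1 lower, with a median of 0.23. CCNE2, a cyclin that drives entry into S phase, was at 9.75 and 9.70 in RPMI-1640 and at 7.67 and 7.78 in HS, 4-fold higher (2.00 ± 0.21 SE, adjusted p = 3.8e-05). Its partner gene CCNE1 was higher by 0.68. RRM2, a subunit of the enzyme that makes deoxynucleotides, was at 10.87 and 10.62 against 9.55 and 8.99 (1.48). SLBP, which binds histone mRNA, was at 10.03 and 10.14 against 8.91 and 8.94 (1.16), and its second probe was higher by 1.02. MCM4 (0.57), MCM2 (0.93) and E2F1 (0.33) were not called. The number of members called depended on the fit and was as high as 17 among those tried. Without RPMI-1640 replicate 1, 6 of the 30 were called, and without any other of the 4 arrays 7 to 10. The E2F element, written TTTCCCGC, was in 7 of the 26 promoters found for this list (26.9%), against 1.42% of all promoters, and another form, TTTGGCGC, was in 3 (11.5%, against 0.553%). CCNE2, CCNE1, RRM2 and SLBP were not among the members that held either form, whereas E2F1, which was not called, held the second. Both shares describe the listed genes, called or not, and say nothing of their levels.

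Mitotic genes formed the largest group among those higher in RPMI-1640, with 20 of 30 called higher, 0 lower and a median of 0.70. CCNA2, a cyclin of S phase and G2, was at 10.86 and 10.76 in RPMI-1640 and at 9.52 and 9.37 in HS (1.36 ± 0.12 SE, adjusted p = 1.5e-05). The kinase AURKA was at 11.51 and 11.41 against 10.29 and 10.10, higher by 1.27 on each of its 2 probes. The spindle motor KIF11, the checkpoint kinase TTK and DLGAP5, a spindle protein, were higher by 1.28, 1.18 and 1.18. FAM83D, which brings a kinase to the spindle, was at 11.36 and 10.97 against 9.20 on both HS arrays (1.96). PLK1 (0.23), CCNB1 (0.27), AURKB (0.20) and MKI67 (0.36) were not called. Without any 1 of the 4 arrays, 17 were called. In DMEM minus HS, 9 mitotic genes were called higher with a median of 0.41 and 7 G1/S genes with a median of 0.33, and RPMI-1640 was called above DMEM in 9 and 3. For CCNA2 the order was RPMI-1640, MEM at 50% confluence (10.59 and 10.56), MEM at 90% confluence (10.36 and 10.32), DMEM (10.12 and 10.08), HS and then 0.1% FBS (8.48 and 8.95).

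Regulators of the G1 phase differed in both directions, 4 of 12 higher and 2 lower (1 lower without any 1 of the 4 arrays). CCND1, cyclin D1, was at 11.87 and 11.94 in RPMI-1640 and at 10.87 and 10.52 in HS (1.21 ± 0.12 SE, adjusted p = 2.5e-05). Its partner CDK6 was higher by 0.70, and the inhibitors CDKN2D and CDKN2C by 0.83 and 0.76. CDKN1A, the inhibitor p21, was at 9.40 and 9.49 against 10.75 and 10.47 (-1.16). In DMEM it was at 10.68 and 10.65, level with HS, and this gene divides the arrays as the ribosomal probes do. In bulk RNA, fewer cells in a phase of the cycle and less RNA per cell cannot be told apart.

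**Figure D4:**
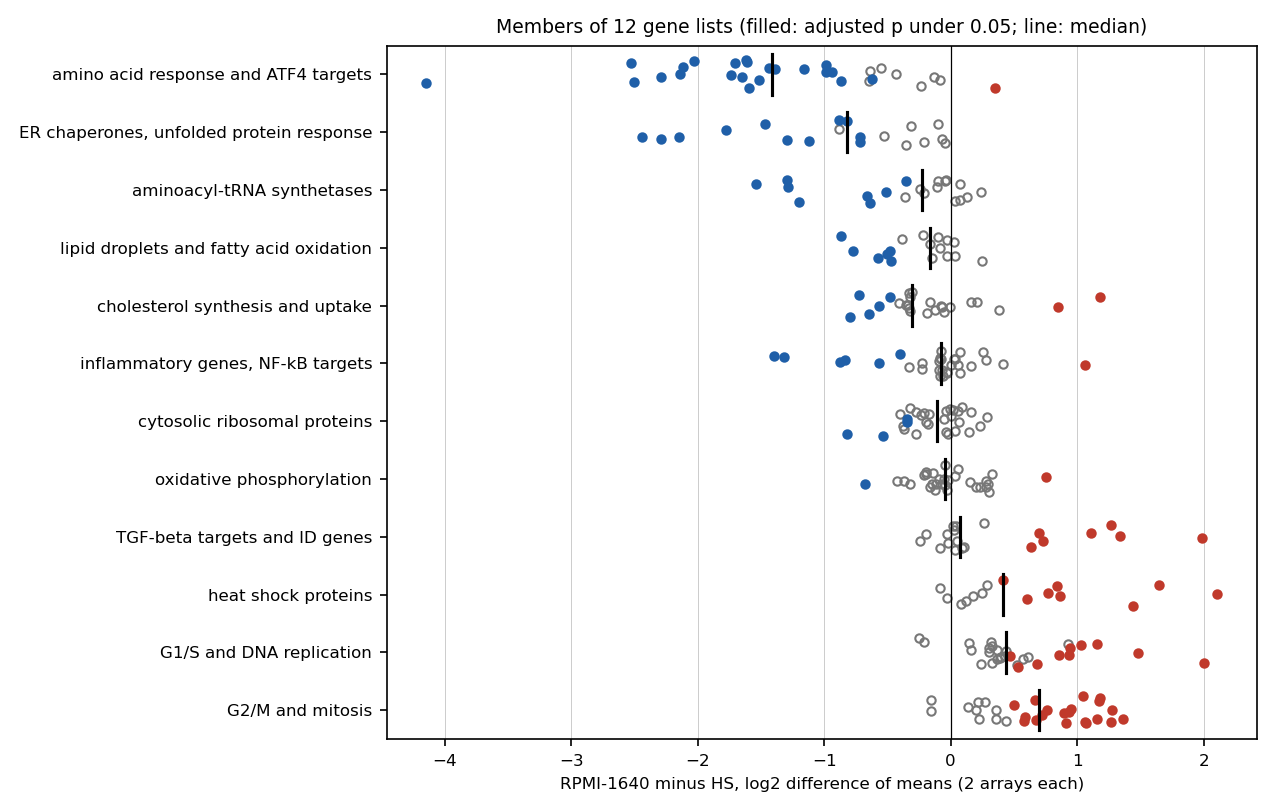
Difference of RPMI-1640 minus HS on the log2 scale for the members of 12 gene lists, 1 dot per gene symbol (brightest probe), filled red or blue where called higher or lower and open where not called, with a line at each list's median. The medians run from -1.41 for the amino acid response to 0.70 for mitosis, and those of ribosomal proteins (-0.11) and oxidative phosphorylation (-0.05) lie near 0.

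Inhibitors of differentiation and other genes downstream of TGF-β and BMP signals were higher or not called, 7 of 20 higher and 0 lower, with a median of 0.07. ID3, which blocks bHLH factors from DNA, was at 10.02 and 10.09 in RPMI-1640 and at 8.03 and 8.11 in HS, 3.96-fold higher (1.99 ± 0.10 SE, adjusted p = 5.3e-08). ID1 was at 8.49 and 8.34 against 6.88 and 7.27 (1.34). SMAD6 and BAMBI, which restrain these receptors, were higher by 0.73 and 1.27, BAMBI at 11.34 and 11.71 against 10.28 and 10.23. TGFBI, a matrix protein induced by TGF-β, was at 9.11 and 9.09 against 7.99 on both HS arrays (1.11). ID3 and BAMBI were also higher in DMEM than in HS (1.31 and 1.32), whereas TGFBI and ID1 were not called there (-0.28 and 0.14). SMAD7 (-0.24) and THBS1 (0.03) did not pass the test. In 0.1% FBS ID3 was at background, at 6.88 and 6.80.

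Genes of lipid supply were split. Among 25 genes of cholesterol synthesis and uptake, 2 were called higher and 5 lower, with a median of -0.31, and 20 had negative differences. INSIG1, which holds the SREBP factors in the ER, was at 9.82 and 9.88 in RPMI-1640 and at 8.63 and 8.72 in HS (1.18, adjusted p = 0.00034), although its second, dimmer probe was not called (0.36). Without RPMI-1640 replicate 2, 1 member was called higher. The enzymes ACAT2, NSDHL and SC5DL differed by -0.80, -0.73 and -0.64, and 3 members were called lower without HS replicate 1. HMGCS1, an early enzyme of the pathway chosen here after its values were seen, differed by -0.32 and was not called. DMEM minus HS gave another picture, with 16 of 25 called higher, 0 lower and a median of 0.65, HMGCS1 at 2.26 among them, and RPMI-1640 was called below DMEM in 16. MYLIP, a ubiquitin ligase induced by LXR, was at 9.19 and 9.15 against 7.53 and 7.48 (1.67 ± 0.11 SE, adjusted p = 5.9e-07), and 1.47 higher in DMEM than in HS. Its fellow LXR target ABCA1 was not called (-0.19). Of 17 genes of lipid droplets and fatty acid oxidation, 6 were called lower and 0 higher, among them HADHA (-0.87), the droplet protein PLIN2 (-0.77, second probe -0.71) and ETFDH (-0.57), and 4 were called without each of the arrays in turn. Fatty acid synthesis genes had 4 of 19 called higher and 3 lower. ACSL3 was higher by 0.50, and without RPMI-1640 replicate 1 it was no longer called (adjusted p = 0.065). The counts higher and lower were 2 and 1 without RPMI-1640 replicate 1, 1 and 2 without RPMI-1640 replicate 2, 1 and 0 without HS replicate 1, and 2 and 2 without HS replicate 2.

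The 6 genes that the study followed by RT-PCR, and ACTB, were read in the same fit. IL8 (CXCL8), a chemokine, was at 6.92 and 7.22 in RPMI-1640 and at 7.66 and 8.15 in HS (-0.83 ± 0.18 SE, adjusted p = 0.0077). That call was lost without RPMI-1640 replicate 1 (adjusted p = 0.097) or without HS replicate 2 (adjusted p = 0.094), and a second probe showed 0.01. S100A4, a calcium-binding protein tied to motility, was at 10.96 and 11.09 against 12.14 and 12.27 (-1.18 ± 0.13 SE, adjusted p = 5.8e-05), and its second probe differed by -2.83. It was at 12.31 and 12.23 in DMEM and between 10.89 and 11.36 in 0.1% FBS and at 50% confluence, but at 7.90 and 8.09 in MEM with 10% FBS at 90% confluence. CD44, a hyaluronan receptor, was at 12.76 on both RPMI-1640 arrays and at 11.97 and 12.06 in HS (0.74, adjusted p = 0.00051). A second CD44 probe was higher by 0.93 and another, dimmer one by 0.17 without a call. VIM, vimentin, was at 14.31 and 14.33 against 14.07 and 13.78 and was not called (0.40, adjusted p = 0.052), while its second probe was (0.37, adjusted p = 0.035). CDH1 and CD24 were not above background in either condition (-0.12 and 0.24), and ACTB did not differ at the threshold (0.13, adjusted p = 0.61). One probe each of CD44 and CDH1 and both of VIM hold other values in the linear table than in the log2 table, which was used here. In the linear table the second VIM probe differed by -0.78 (adjusted p = 0.00031), the first by -0.14 (adjusted p = 0.51) and the second CD44 probe by -0.12 (adjusted p = 0.75). CDH1 was above background on all 4 arrays there, at 7.43 on both RPMI-1640 arrays and at 7.89 and 7.50 in HS (-0.26, adjusted p = 0.31). For these probes the direction or level therefore depends on the table.

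Cytokine genes were mostly near background or lower. Of 30 inflammatory and NF-κB genes, 6 were called lower and 1 higher, with a median of -0.07, and 13 were above background on none of the 4 arrays. CSF2 (GM-CSF) was at 7.02 and 7.32 in RPMI-1640 and at 8.42 and 8.55 in HS (-1.32, adjusted p = 1.6e-05). IL24 was at 7.13 and 7.36 against 8.78 and 8.51 (-1.40), with 2 further probes at -0.88 and -0.63. NFKBIZ, a nuclear partner of NF-κB, differed by -0.87 and LIF by -0.56. CCL2 was higher by 1.06, a call lost without any 1 of the 4 arrays (adjusted p = 0.055 to 0.16). VEGFA, an angiogenic factor that ATF4 and hypoxia both induce, was at 7.98 and 8.46 against 9.67 and 9.52 (-1.37), and its difference between DMEM and HS was -1.30.

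Mesenchymal markers were called higher for 4 of 24 genes and lower for 1, S100A4, with a median of 0.05. SNAI2, a repressor of epithelial genes, was at 9.49 and 9.47 in RPMI-1640 and at 7.77 and 7.97 in HS (1.61 ± 0.23 SE, adjusted p = 0.00051), and its second probe was higher by 1.16. It was at 9.48 and 9.46 in DMEM and at 8.33 and 8.44 at 50% confluence. SPARC, a matrix protein, was higher by 0.80, and TAGLN was not above background in HS. Epithelial markers were above background on all 4 arrays for 3 of 27 genes, and 3 were called lower. CLDN1, a tight junction protein, was at 8.61 and 8.44 against 10.30 and 10.50 (-1.87), and it was at 11.35 and 10.12 in 0.1% FBS. KRT7 was at 7.04 and 6.92, near background, against 8.11 and 8.22 (-1.18), and TJP1 differed by -0.75 and -0.63 on its 2 probes.

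Melanocyte lineage genes were higher for 8 of 25 and lower for 3, with a median of 0.05. SOX10, a neural crest factor, was at 10.73 and 11.05 in RPMI-1640 and at 10.25 and 9.65 in HS (0.94 ± 0.17 SE, adjusted p = 0.002). DCT, an enzyme of melanin synthesis, was at 10.36 and 10.11 against 9.25 and 9.33 (0.95). TYR, tyrosinase, was at 7.46 and 7.37 and not above background in HS. CAPN3 and MIA differed by -0.65 and -0.62. The mean level over the 25 genes was 8.21 to 8.27 on the RPMI-1640 arrays and 8.06 to 8.08 on the HS arrays. Called higher were 4 without RPMI-1640 replicate 2, 5 without RPMI-1640 replicate 1 or HS replicate 2, and 6 without HS replicate 1. DCT was highest in 0.1% FBS, at 12.16 and 12.39, and lowest at 50% confluence and in MEM at 90% confluence, at 8.92 to 9.40, with HS within that range. In DMEM minus HS, 11 were called higher and 1 lower.

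Several of the largest differences were small in DMEM minus HS. NOMO3, of a family of near-identical ER membrane genes whose copies the probe may not separate, was at 9.70 and 9.69 in RPMI-1640 and at 7.62 and 7.30 in HS (2.24, adjusted p = 3.4e-07). It was at 7.68 and 7.50 in DMEM and at 9.17 to 9.69 in 0.1% FBS and at 50% confluence. EIF3CL, a copy of the translation factor gene EIF3C, was at 10.30 and 10.56 against 8.74 and 8.04 (2.04), and DMEM minus HS was -0.19. FSD1L had a mean of 8.51 in RPMI-1640 and was not above background in HS, at least 2.87-fold higher, and DMEM was at 6.88 on both arrays. LOC653994 and LOC441763, known only by these symbols, were higher by 2.08 and 1.72, and DMEM minus HS was -0.01 and -0.32. These last 2 were at 10.23 to 11.10 in MEM at 90% confluence, unlike the ribosomal probes, so the split was not the same for all genes. Of the 12 symbols with the largest increase, 6 were called in DMEM minus HS as well (TXNIP, HSPA1B, CCNE2, ID3, FAM83D and MYLIP), and of the 12 with the largest decrease all but the 28S probe were. Of all symbols, 3.24% were called higher and 2.70% lower in DMEM minus HS. These symbols were picked by their difference from the same 2 HS arrays, so the overlap is a description and no result.

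**Figure D5:**
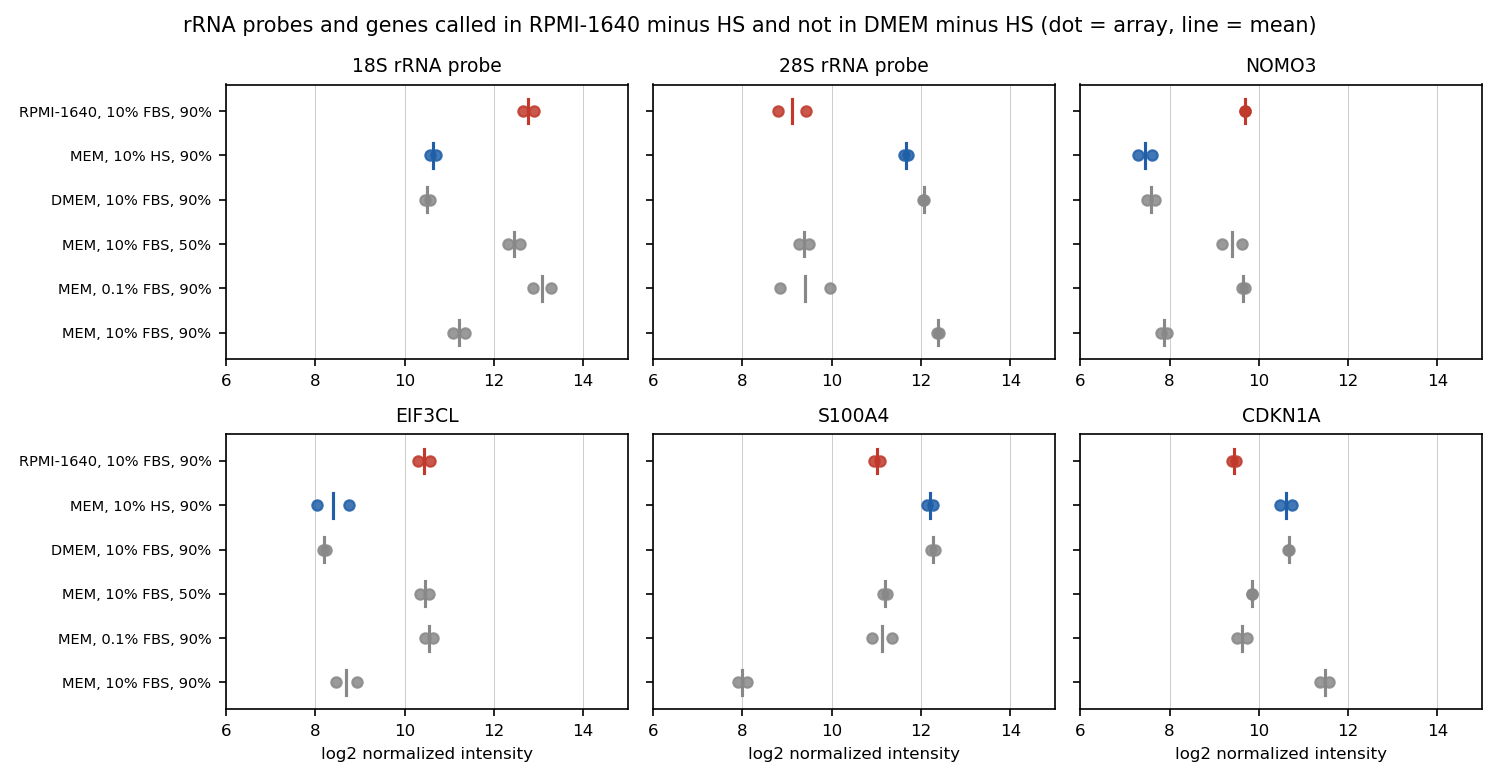
Log2 normalized intensity of an 18S and a 28S ribosomal RNA probe, NOMO3, EIF3CL, S100A4 and CDKN1A on all 12 arrays, with a dot for each array and a line at the mean. The 28S probe is at 8.79 to 9.96 in RPMI-1640, 50% confluence and 0.1% FBS and at 11.63 to 12.40 in the other 3 conditions. In each panel RPMI-1640 lies with the former and HS with DMEM. All probes shown were called in RPMI-1640 minus HS and not in DMEM minus HS, so HS lying with DMEM is no separate observation. S100A4 departs from the split in MEM with 10% FBS at 90% confluence, where it is at 7.90 and 8.09, far below HS and DMEM.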

How the data were processed

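MDA-MB-231 RNA was measured on 12 arrays, 2 for each of 6 conditions, of the type Illumina HumanHT-12 v4.0. The authors deposited linear intensity values, already quantile-normalized between arrays, and their log2 values. BeadStudio is named in the submitters' processing notes. The deposited log2 table was used. Against the linear intensity table, 8 of 47231 probes hold values exchanged in pairs (CDH1, VIM and CD44 probes included), and the log2 table equals the series' value table. Differences were fitted with limma 3.58.1 in R 4.3.3 (lmFit, eBayes) to all 12 arrays with 1 mean per condition (6 residual and 8.96 prior degrees of freedom), adjusted by Benjamini-Hochberg over all probes. No filter on dim probes was used. The fit was tested on simulated data. Those arrays were independent and held no array-wide split such as that of the ribosomal probes, so the test cannot show how such a split acts on the calls. Symbols are those of the array, and 21186 of 31334 matched RefSeq names, while 3270 probes had no name and 54 names had turned into dates.

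Named genes are the 6 of the study's RT-PCR and ACTB, the called symbols that rose most (12) and fell most (12), and up to 5 called members of each of 49 lists, all above background on both arrays of the brighter condition. Members named as not called, and further called members, were added after their values were seen. Members and lists were chosen with earlier results of these data known. A fold is called at least N-fold where the dimmer condition was not above background on either array: the bright mean was set against, per array, the higher of background and the probe's own level. Alternatives were other scalings, the linear table, subsets of arrays, a replicate block, trended variance, a background filter, leaving out each array, and the methods' t-test. Replicate numbers did not pair the arrays (correlation of deviations 0.07 between RPMI-1640 and HS). Some members of the lists are not reported here by name.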

Additional observations from a re-analysis of the deposited data

How the results depend on the processing

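None of the 170 named genes called, each read by its brightest probe, reversed under the alternatives tried. With the linear table, 3 of the 3996 called probes changed sign, the second VIM probe (0.37 to -0.78), the second CD44 probe (0.93 to -0.12) and the probe of TNFRSF14 (-0.78 to 0.37), a gene singled out after its values were seen. Of the 3996 probes called, 2278 higher and 1718 lower, an adjusted p under 0.01 left 2089 (1233 and 856) and the 2-fold limit 394 (214 and 180). Leaving out 1 of the 4 arrays gave 2323 to 3049 probes, 1358 to 1658 higher and 965 to 1391 lower, and 368 to 479 at 2-fold, the lowest counts coming without RPMI-1640 replicate 1. The methods' t-test at P under 0.001 called 132 probes (70 higher and 62 lower, 20 of them 2-fold), and 0 after Benjamini-Hochberg adjustment, 0 at 2-fold included. After the same adjustment limma called the 3996 probes, and before it 9083 had a limma p under 0.05. The 4 arrays alone gave 2903 probes, a fit without the MEM 10% FBS arrays at 90% confluence 3400, and one without the 0.1% FBS arrays 4616. A replicate block gave 4129 probes, and the replicate numbers share only a number, with correlations of deviations between conditions from -0.06 to 0.13. Of 170 named genes called, 126 to 138 kept their call when an array was left out, 145 with the 4 arrays alone, 154 with trended and robust variance, 164 without the MEM arrays and 168 with the block. With 2 arrays per condition and no slide or scan named, array-wide effects could not be separated from medium and serum.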

Other observations

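Hypoxia genes were split between cells in RPMI-1640 and in HS, with 6 of 23 called higher, 3 lower and a median of 0.15 (6 and 2 in DMEM minus HS). BNIP3L and BNIP3, receptors for the removal of mitochondria, were higher in RPMI-1640 by 1.03 and 0.95, BNIP3 at 11.82 and 11.56 against 10.57 and 10.89. PFKFB3, which speeds glycolysis, was higher by 0.89 and the peptide hormone ADM by 0.88. VEGFA, DDIT4 and NDRG1 were the 3 lower members, NDRG1 by a difference of -0.54. CA9, a carbonic anhydrase induced by hypoxia, was above background on no array.

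Of 13 genes of iron uptake and storage, 2 were called higher and 1 lower with a median of -0.05 (3 and 0 in DMEM minus HS). TFRC, the transferrin receptor, was at 12.02 and 12.08 in RPMI-1640 and at 11.33 on both HS arrays (0.72), CYBRD1, which reduces iron, was higher by 0.85, and FTL, the light chain of the iron store ferritin, differed by -0.52. Of 16 targets of the retinoid and aryl hydrocarbon receptors, 4 were called higher and 0 lower with a median of 0.11 (2 and 0 in DMEM minus HS). The retinoic acid receptor RARA was at 8.96 and 9.35 against 8.34 and 7.80 (1.09), and ALDH1A3, which makes retinoic acid, was at 10.89 and 11.02 against 9.85 and 10.05 (1.00). Of 27 HOX genes, 5 were called higher (3 without RPMI-1640 replicate 2) and 0 lower (6 and 0 in DMEM minus HS), led by HOXB5 (0.92) and HOXC6 (0.69). Of 24 genes of lysosomes and autophagy, 6 were called lower (2 without HS replicate 1), led by WIPI1 (-1.29), a protein of early autophagosomes. Of the 24, 0 were called lower in DMEM minus HS, with a median of 0.03, and 6 in RPMI-1640 minus DMEM, and the ribosomal probes split the arrays the same way, whose part in this was not tested.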
